A study of Mus musculus with 37 samples.

Results

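The CYP4 enzymes are the cytochrome P450 monooxygenases that hydroxylate fatty acids at the end of the chain (omega-hydroxylation). Measured here were 9 mouse CYP4 genes, namely Cyp4a10, Cyp4a14, Cyp4a12a, Cyp4a12b, Cyp4b1, Cyp4f13, Cyp4f14, Cyp4f15 and Cyp4v3, in livers of mice given the perfluorinated compound HFPO-DA. The genes were taken by name, with no threshold on their response, and all of their probes were used. They carry 13 probes among the 30146 probes and 21450 gene symbols of the panel, and all 13 probes passed the filter on low counts that left 18570 probes of 13004 genes.

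Omega-hydroxylation is the entry to a side route of fatty acid breakdown. The hydroxylated fatty acid is oxidised by alcohol and aldehyde dehydrogenases to a dicarboxylic acid, which is then shortened in peroxisomes. In rodent liver Cyp4a10 and Cyp4a14 are classical target genes of PPARα, the nuclear receptor that responds to fatty acids and to peroxisome proliferators. Cyp4a12a is known as an androgen-dependent, male form that also converts arachidonic acid, and CYP4F enzymes act on leukotrienes and vitamin E.

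The mice were wild-type outbred Crl:CD1(ICR) adults of the parental (F0) generation. They received the ammonium salt of HFPO-DA by oral gavage at 5, 0.5 or 0.1 mg/kg, or deionized water as vehicle (0 mg/kg). Males were about 6 weeks old at the first dose and were dosed from 70 days before mating through mating. Females were about 11 weeks old at the first dose and were dosed from 14 days before mating to lactation day 20 or 21, for 53 to 65 doses, so that sex cannot be told apart here from age, lactation and the number of doses. In order of dose the groups held 5, 5, 5 and 4 males and 5, 5, 4 and 4 females. Each mouse is 1 liver sample, numbered within its group only to name it.

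The 9 genes lie in 3 places in the mouse genome (GRCm38 build, GENCODE M21 annotation). On chromosome 4 the annotation places Cyp4a12a at chr4:115299046-115332815 and Cyp4a12b at chr4:115411624-115439034, both on the plus strand, followed by Cyp4a14 at chr4:115486200-115496142 on the minus strand and Cyp4a10 at chr4:115518264-115533649 on the plus strand. These 4 genes span 235 kb, and Cyp4b1 lies further along at chr4:115624725-115647723 on the minus strand. On chromosome 17 a stretch of 262 kb holds Cyp4f15 at chr17:32685627-32703352 (plus), Cyp4f14 at chr17:32905070-32917342 (minus) and Cyp4f13 at chr17:32924688-32947402 (minus). Cyp4v3 stands alone at chr8:45304944-45333216 on the minus strand.

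P450 enzymes share a signature motif around the cysteine that holds the haem iron, and the 30 coding bases of that motif show how close the members are. They are given for all 9 genes because this closeness bears on what a short probe can tell apart. The sequences were read from the GENCODE M21 transcripts on the coding strand, 5′ to 3′, with the codon of the haem-binding cysteine in capitals.
Cyp4a10: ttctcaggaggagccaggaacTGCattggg
Cyp4a14: ttctcaggaggatcaaggaacTGCattggg
Cyp4a12a: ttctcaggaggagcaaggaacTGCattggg
Cyp4a12b: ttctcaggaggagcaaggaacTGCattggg
Cyp4b1: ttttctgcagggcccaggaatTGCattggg
Cyp4f13: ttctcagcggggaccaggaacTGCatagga
Cyp4f14: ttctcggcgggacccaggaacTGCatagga
Cyp4f15: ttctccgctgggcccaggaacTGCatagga
Cyp4v3: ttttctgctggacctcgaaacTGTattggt

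Cyp4a12a and Cyp4a12b had the same 30 bases here, and both differed from Cyp4a10 at 1 base. Cyp4a14 differed from Cyp4a10 at 2 bases, the members of other subfamilies at 6 or 7 and Cyp4v3 at 10. Over whole transcripts, 1160 of the 2373 windows of 50 bases in Cyp4a12a (48.9%) also occur in Cyp4a12b. Of the 50-base windows of Cyp4a10, 25% occur in Cyp4a32 and 15.3% in Cyp4a31, a pair of neighbouring CYP4 genes outside the list. Cyp4a14, Cyp4b1 and Cyp4v3 shared no such window with the CYP4 genes compared. The probe sequences were not used here, so counts of Cyp4a12a, Cyp4a12b and Cyp4a10 may include reads of a near-identical copy.

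PPARα binds repeats of the letters AGGTCA. A pair of AGGTCA copies joined by 1 base, searched on both strands of RefSeq promoters (GRCm38.p6, from 250 bases before to 50 bases after the start), was found without a mismatch in 0.04% of 32851 promoters and with up to 2 letters different in 3.9%. Promoters were at hand for 5 of the 9 members, Cyp4b1, Cyp4f13, Cyp4f14, Cyp4f15 and Cyp4v3, and no match within 2 letters was found in these 300-base windows. With a match in only 3.9% of all promoters, its absence from 5 does not set these genes apart. None of the Cyp4a members could be searched.

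Between 2101495 and 13878254 counts were read per mouse, on 11347 to 19832 probes. The 4 shallowest mice, with 2101495 to 4147445 counts, were males: mouse 4 at 0.1 mg/kg, mouse 2 at 0.5 mg/kg and mice 1 and 3 at 5 mg/kg. Values below are in CPM, counts relative to the mouse's total after TMM scaling of the library sizes. The 8 hepatocyte markers checked, such as Alb and Ttr, were present in every group. Fold changes come from edgeR's quasi-likelihood test fitted to all 37 mice, with p-values adjusted by the Benjamini-Hochberg method over all 18570 probes, and a probe is called changed at an adjusted p under 0.10. The 3 doses of a sex are compared with the same vehicle mice.

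In vehicle mice the clearest difference between the sexes was in the Cyp4a12 pair. Cyp4a12a, on its lead probe (the one with most counts), read 400, 247, 703, 485 and 393 CPM in the 5 vehicle males and 0.419, 1.43, 2.43, 0.492 and 0.0833 CPM in the 5 vehicle females. The sexes did not overlap and lay 455-fold apart (log2 difference 8.83 ± 0.70 (SE), edgeR adjusted p = 8.85e-13). Its other probe had no count in any vehicle female against 6.75 to 25.3 CPM in vehicle males, at least 237-fold higher when the females are set to a floor of 3 counts over the group. Cyp4a12b, the near-identical copy, was 27.7-fold higher in vehicle males (log2 difference 4.79 ± 0.77, edgeR adjusted p = 4.11e-05). Cyp4a10 went the other way on its lead probe, at 5.84 to 59.4 CPM in males and 57.1 to 162 CPM in females, groups that overlapped (log2 difference −1.79 ± 0.49, edgeR adjusted p = 0.0449). That call was lost when any of 4 mice was left out, vehicle males 2, 3 and 4 and vehicle female 4 (adjusted p 0.116 to 0.196), and the other Cyp4a10 probe gave −1.47 (edgeR adjusted p = 0.15). Across all members 3 probes were higher and 1 lower in vehicle males, against 1.24% and 1.36% of all probes tested.

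Cyp4a10 and Cyp4a14, both omega-hydroxylases of medium- and long-chain fatty acids, rose in both sexes at 0.5 and 5 mg/kg. On its lead probe Cyp4a10 read 59.4, 5.84, 28.2, 17.8 and 31.3 CPM in vehicle males, 57.9, 4.60, 223, 27.6 and 69.3 CPM at 0.1 mg/kg, 405, 327, 796, 1159 and 613 CPM at 0.5 mg/kg, and 3262, 2364, 2407 and 2099 CPM at 5 mg/kg. In females it read 79.1, 102, 91.6, 162 and 57.1 CPM with vehicle, 159, 61.7, 136, 146 and 203 CPM at 0.1 mg/kg, 614, 773, 489 and 680 CPM at 0.5 mg/kg, and 2208, 2158, 1756 and 2069 CPM at 5 mg/kg. In both sexes the vehicle and 0.1 mg/kg mice overlapped, every mouse at 0.5 mg/kg lay above all of them, and every mouse at 5 mg/kg lay above all mice at 0.5 mg/kg.

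At 5 mg/kg Cyp4a10 was 88.7-fold above vehicle in males (log2 fold change 6.47 ± 0.61 (SE), 95% interval 5.24 to 7.70, edgeR adjusted p = 2.48e-10) and 20.8-fold above vehicle in females (4.38 ± 0.55, 3.26 to 5.49, edgeR adjusted p = 3.45e-07). The log2 fold change at 0.5 mg/kg stood at 4.53 ± 0.55 in males (edgeR adjusted p = 1.25e-06) and 2.70 ± 0.52 in females (edgeR adjusted p = 0.00832). The female call at 0.5 mg/kg was not kept by the robust fit (adjusted p = 0.102). On the other probe the values at 5 mg/kg were 5.64 ± 0.59 for males and 4.45 ± 0.56 for females.

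Cyp4a14 read 26.9, 1.04, 6.42, 18.5 and 26.1 CPM in vehicle males, 2.65, 13.4, 141, 9.53 and 28.9 CPM at 0.1 mg/kg, 395, 286, 420, 733 and 354 CPM at 0.5 mg/kg, and 941, 1037, 924 and 998 CPM at 5 mg/kg. Females read 10.7, 13, 37.2, 20.4 and 7.41 CPM with vehicle, 77.1, 35.4, 38.8, 65.2 and 63.7 CPM at 0.1 mg/kg, 342, 471, 329 and 311 CPM at 0.5 mg/kg, and 946, 997, 1271 and 1044 CPM at 5 mg/kg. The order of the groups was as for Cyp4a10, with overlap between vehicle and 0.1 mg/kg and a gap before 0.5 and before 5 mg/kg. The fold over vehicle at 5 mg/kg was 61.7 in males (log2 fold change 5.95 ± 0.68, 4.57 to 7.32, edgeR adjusted p = 2.35e-08) and 60.0 in females (5.91 ± 0.68, 4.54 to 7.28, edgeR adjusted p = 3.99e-08). By 0.5 mg/kg it had risen by 4.79 ± 0.64 log2 units in males (edgeR adjusted p = 5.74e-06) and by 4.36 ± 0.64 in females (edgeR adjusted p = 1.73e-04).

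**Figure D1:**
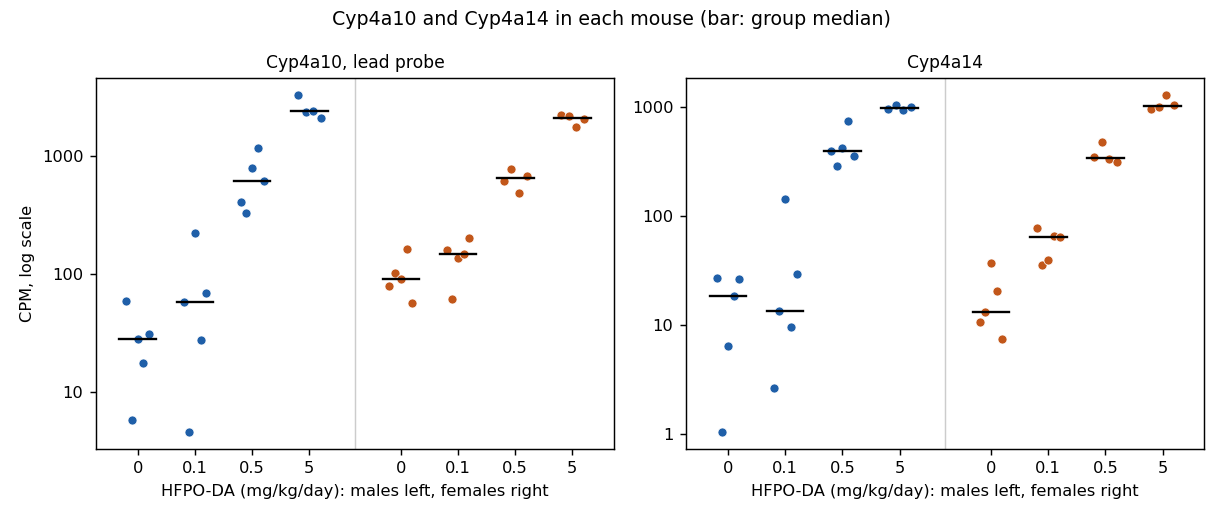
Cyp4a10 (lead probe) and Cyp4a14 in each mouse, in CPM on a log axis, by dose in mg/kg, with males in blue, females in orange and bars at group medians. Vehicle and 0.1 mg/kg mice overlap, while every mouse at 5 mg/kg lies at or above 1756 CPM for Cyp4a10 and 924 CPM for Cyp4a14, above all mice at 0.5 mg/kg.

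At 0.1 mg/kg neither gene passed the test in either sex. Cyp4a10 was at a log2 fold change of 1.43 ± 0.49 in males (unadjusted p = 0.00564, edgeR adjusted p = 0.624) and 0.52 in females, and Cyp4a14 was at 1.31 in males (edgeR adjusted p = 0.635) and 1.66 ± 0.56 in females (unadjusted p = 0.00527, edgeR adjusted p = 1). A single male at 0.1 mg/kg, mouse 3, was the highest of its group on both Cyp4a10 probes (223 and 214 CPM) and on Cyp4a14 (141 CPM). Without it the values in males were 0.50 for Cyp4a10 (edgeR adjusted p = 0.964) and −0.18 for Cyp4a14. Vehicle male 2 was the lowest vehicle male on all 3 of these probes, at 5.84, 1.56 and 1.04 CPM.

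Cyp4a12a responded to HFPO-DA in females, and no change was called in males. In males it read 440, 497, 482, 313 and 409 CPM at 0.1 mg/kg, 460, 400, 487, 501 and 487 CPM at 0.5 mg/kg and 497, 529, 471 and 418 CPM at 5 mg/kg, all within the range of the vehicle males given above. In females it read 0.261, 0.234, 0.137, 0.916 and 1.39 CPM at 0.1 mg/kg, 1.79, 8.41, 52.6 and 2.76 CPM at 0.5 mg/kg, and 270, 231, 210 and 79.1 CPM at 5 mg/kg. Every female at 5 mg/kg lay above every female of the other groups, and the highest of them, at 270 CPM, lay above the lowest vehicle male, at 247 CPM.

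At 5 mg/kg Cyp4a12a was 201-fold above vehicle in females (log2 fold change 7.66 ± 0.68, 6.28 to 9.03, edgeR adjusted p = 6.11e-11) and at 0.10 ± 0.50 in males (−0.91 to 1.12, edgeR adjusted p = 0.947). The other probe had no count in vehicle females and read 7.12, 4.74, 7.29 and 3.83 CPM at 5 mg/kg, at least 98.2-fold higher against a floor of 3 counts over the vehicle group (edgeR adjusted p = 1.31e-06). In males at 5 mg/kg it read 18.6, 7.50, 0 and 16.2 CPM, the 0 being the shallowest mouse. The summed counts of the lead probe were 33.9 times those of the other in females at 5 mg/kg, and 28.2 to 43.1 times in the 4 male groups. In females at lower doses the ratio lay outside that range, at 192 at 0.5 mg/kg (768 against 4 counts) and 4.86 at 0.1 mg/kg (34 against 7 counts). In females at 0.5 mg/kg the lead probe was also called (log2 fold change 4.08 ± 0.63, edgeR adjusted p = 2.69e-04), in groups that overlapped. That call rested on female 3, at 52.6 CPM: without this mouse the value was 2.14 (edgeR adjusted p = 0.121). The other probe read at most 0.300 CPM in females at 0.5 mg/kg and was not called.

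The probe of Cyp4a12b rose in females at 5 mg/kg as well. It read 1.89, 0.102, 0, 0 and 1.08 CPM in vehicle females, 0.0871, 0, 0, 0 and 0.347 CPM at 0.1 mg/kg, 0, 0, 2.14 and 0 CPM at 0.5 mg/kg and 12.5, 10.7, 11.6 and 8.51 CPM at 5 mg/kg. Only the 5 mg/kg females stood clear of the rest, and the 1 female with counts at 0.5 mg/kg was again mouse 3. Against vehicle the log2 fold change came to 4.11 ± 0.77 (2.55 to 5.67, edgeR adjusted p = 3.79e-04). In males Cyp4a12b read 16.1, 4.15, 33.4, 14.6 and 18.6 CPM with vehicle and 31.6, 35.4, 53.3 and 47.6 CPM at 5 mg/kg, a pair of groups that overlapped (1.27 ± 0.66, edgeR adjusted p = 0.237). With each sex fitted apart this male value was called (1.25, edgeR adjusted p = 0.0834).

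**Figure D2:**
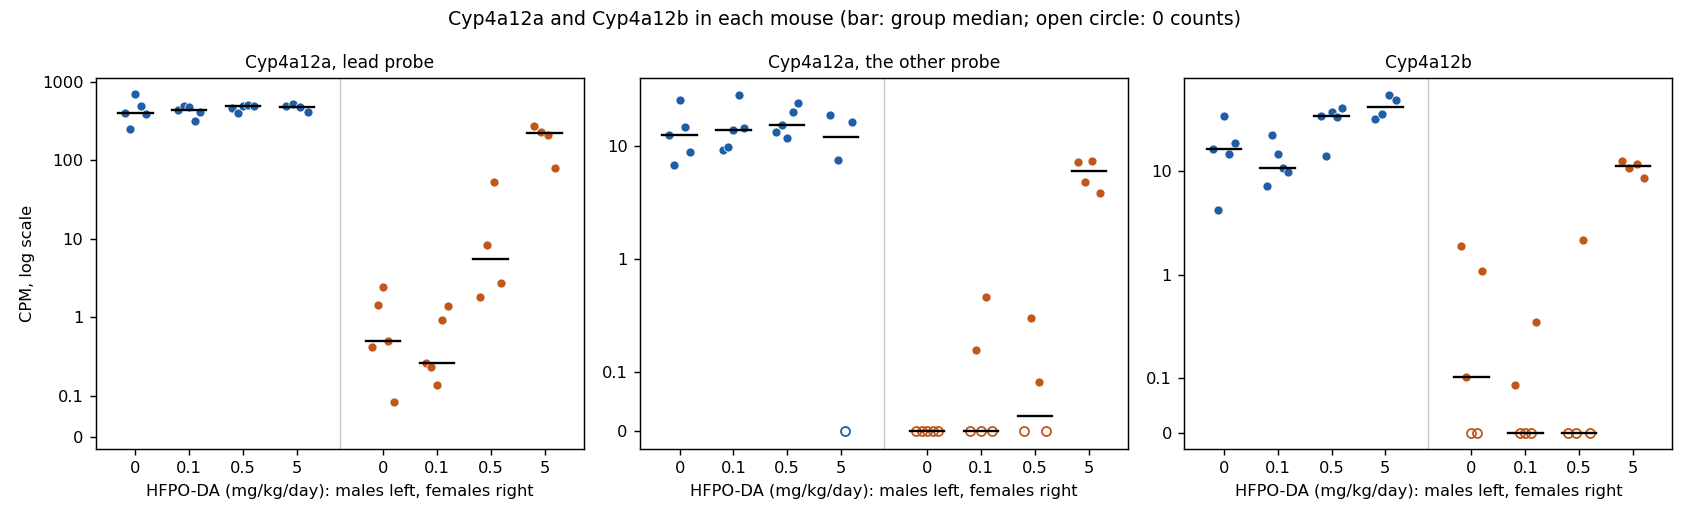
Both Cyp4a12a probes and Cyp4a12b in each mouse, in CPM on a log axis, by dose in mg/kg, with males in blue, females in orange, bars at group medians and open circles for mice with no count. On the lead probe of Cyp4a12a the males stay between 247 and 703 CPM at every dose, while females are at 2.43 CPM or less with vehicle and at 79.1 to 270 CPM at 5 mg/kg.

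Cyp4f14 and Cyp4v3 fell at 5 mg/kg in both sexes. Cyp4f14, a hydroxylase of leukotrienes and vitamin E, read 101, 85.2, 107, 39.9 and 70.9 CPM in vehicle males, 52.0, 67.7, 57.7, 57.7 and 47.5 CPM at 0.1 mg/kg, 51.7, 30.9, 43.4, 47.0 and 28.4 CPM at 0.5 mg/kg and 33.5, 26, 0.750 and 17.5 CPM at 5 mg/kg. In females it read 67.3, 96.8, 99.9, 90.8 and 37.8 CPM with vehicle, 79.0, 78.8, 85.3, 80.1 and 88.8 CPM at 0.1 mg/kg, 62.2, 77.3, 75.6 and 113 CPM at 0.5 mg/kg and 18.2, 7.93, 16.5 and 13.7 CPM at 5 mg/kg. All mice at 5 mg/kg lay below all vehicle mice of their sex, and in males the 0.5 mg/kg mice overlapped both.

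For Cyp4f14 the 5 mg/kg group gave a log2 fold change of −2.03 ± 0.39 in males (−2.81 to −1.25, edgeR adjusted p = 3.10e-04) and −2.48 ± 0.39 in females (−3.27 to −1.69, edgeR adjusted p = 2.65e-05). Male 3 at 5 mg/kg, at 0.750 CPM, was the shallowest mouse of the series. Without it the male value was −1.66 (edgeR adjusted p = 2.27e-04). The male value at 0.5 mg/kg was −1.0 ± 0.34 (edgeR adjusted p = 0.273), and it was called when that same mouse was left out of the fit (edgeR adjusted p = 0.0534).

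Cyp4v3 is the mouse counterpart of CYP4V2, the fatty acid hydroxylase gene mutated in Bietti crystalline dystrophy. It read 601, 371, 407, 683 and 707 CPM in vehicle males, 615, 634, 629, 668 and 773 CPM at 0.1 mg/kg, 496, 310, 655, 494 and 603 CPM at 0.5 mg/kg, and 349, 244, 192 and 296 CPM at 5 mg/kg. Females read 330, 484, 353, 492 and 434 CPM with vehicle, 436, 301, 405, 368 and 406 CPM at 0.1 mg/kg, 331, 321, 208 and 345 CPM at 0.5 mg/kg, and 188, 145, 122 and 234 CPM at 5 mg/kg. In each sex the mice at 5 mg/kg lay below all vehicle mice. The log2 fold change was −1.03 ± 0.22 in males (−1.47 to −0.60, edgeR adjusted p = 9.69e-04) and −1.28 ± 0.22 in females (−1.72 to −0.84, edgeR adjusted p = 7.89e-05).

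In bulk tissue, fewer cells of a type and less RNA per cell cannot be told apart. Of the 8 hepatocyte markers, 4 were lower at 5 mg/kg in males (median log2 fold change −0.40 over the 8, from Tat at −2.86 to Asgr1 at −0.45 among the called) and 3 in females (median −0.40, with Serpina1a at −1.10). Hepatocyte markers are set here beside 8.49% of all probes lower in males and 2.26% in females. Their summed level was 9997 to 16610 CPM in vehicle males and 10540 to 12190 CPM at 5 mg/kg, and 14690 to 20930 and 13300 to 15640 CPM in females, with no marker at 0. Markers of cholangiocytes, Kupffer cells, stellate cells and lymphocytes had no call at 5 mg/kg in either sex, and of the endothelial markers Oit3 and Kdr were lower in males. Only 3 of 6 cholangiocyte and 4 of 6 lymphocyte and neutrophil markers passed the filter. Their median log2 fold changes in males and females were −0.09 and −0.69, and −2.49 and −0.99. At such low counts the lack of a call does not show an unchanged level. The summed level of 6 adipocyte markers lay between 12 and 34.1 CPM in vehicle males and between 131 and 339 CPM in males at 5 mg/kg. The ranges in females were 14.6 to 30.6 CPM and 20.2 to 266 CPM. That sum is mostly Fabp4, which rose in both sexes (3.37 and 2.72 log2 units). Cidea, the other adipocyte marker that passed the filter, was also called higher in males, at 4.32 ± 1.36 CPM against 0 in all vehicle males (edgeR adjusted p = 0.0211), and was not called in females. By contrast Adipoq, Lep, Plin1 and Retn were at 0 in the males at 5 mg/kg, and Lep and Retn in the females. The part of cell composition in the CYP4 results was not tested.

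**Figure D3:**
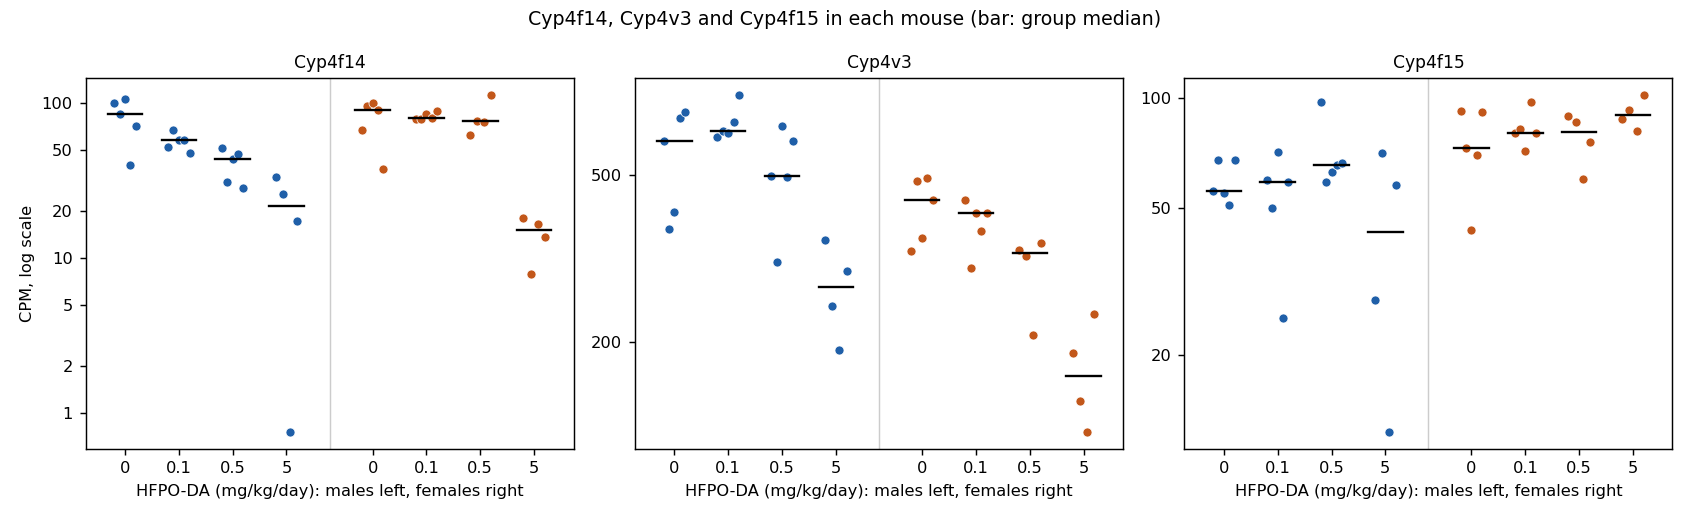
Cyp4f14, Cyp4v3 and Cyp4f15 in each mouse, in CPM on a log axis, by dose in mg/kg, with males in blue, females in orange and bars at group medians. Cyp4f14 and Cyp4v3 are lowest at 5 mg/kg in both sexes, while Cyp4f15 at 5 mg/kg overlaps vehicle, including 1 male at 12.4 CPM.

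The other 3 members showed no called change at any dose in either sex. Cyp4f15, of the same subfamily as Cyp4f14, read 55.8, 67.8, 55.1, 51.2 and 67.6 CPM in vehicle males and 28.3, 70.5, 12.4 and 57.9 CPM at 5 mg/kg. It read 92.0, 73.1, 43.8, 70.0 and 91.3 CPM in vehicle females and 87.2, 92.4, 81.3 and 101 CPM at 5 mg/kg. Both pairs of groups overlapped, and the 2 lowest males were the shallow mice 1 and 3. The log2 fold change was −0.47 ± 0.28 in males (−1.04 to 0.09, edgeR adjusted p = 0.319), or 0.07 without the 4 shallow males, and 0.29 ± 0.28 in females (−0.27 to 0.85, edgeR adjusted p = 0.906). The value of 0.07 rests on males 2 and 4 alone at 5 mg/kg.

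Cyp4b1, better known from lung, where it activates foreign compounds, was read at 0 to 8.41 CPM over all mice. The 5 mg/kg group gave a log2 fold change of −0.57 ± 0.88 in males (−2.35 to 1.22) and −0.56 ± 0.87 in females (−2.32 to 1.19). The 3 probes of Cyp4f13 read 0 to 19.1 CPM, and the probe with most counts gave −0.43 ± 0.81 in males and −0.03 ± 0.79 in females. Intervals of this width cover a change in either direction by more than 2-fold, so a change of that size is neither shown nor excluded in these groups.

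In all, 3 member probes were higher and 2 lower at 5 mg/kg in males, against 4.21% and 8.49% of all probes, and 6 were higher and 2 lower in females, against 2.26% in each direction. The count of 2 lower probes among 13 in males cannot be told from the share of all probes. By gene, Cyp4a10 and Cyp4a14 rose and Cyp4f14 and Cyp4v3 fell in both sexes, and Cyp4a12a and Cyp4a12b were called in females. At 0.5 mg/kg 3 probes were higher in males (background 0.382% higher, 0.242% lower) and 4 in females (background 0.108% higher, 0.00539% lower), and none was lower. No member probe was called at 0.1 mg/kg, where 0% of all probes were called in either sex by edgeR. The authors, with DESeq2 at the same threshold, report very few changed genes at this dose in each sex. By a method that ranks all genes, they also report some PPAR signaling gene sets as enriched upward in males at this dose, and others as not significant. Their method on changed genes alone found none of these sets enriched. At 0.1 mg/kg 3 of the 13 member probes had an unadjusted p under 0.05 in each sex, as did 1325 of all probes in males and 442 in females, and DESeq2 also called no member. Over 1 probe per gene, the 9 members had a median log2 fold change of −0.43 at 5 mg/kg in males and 0.29 in females, beside −0.11 and −0.02 over all genes.

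**Figure D4:**
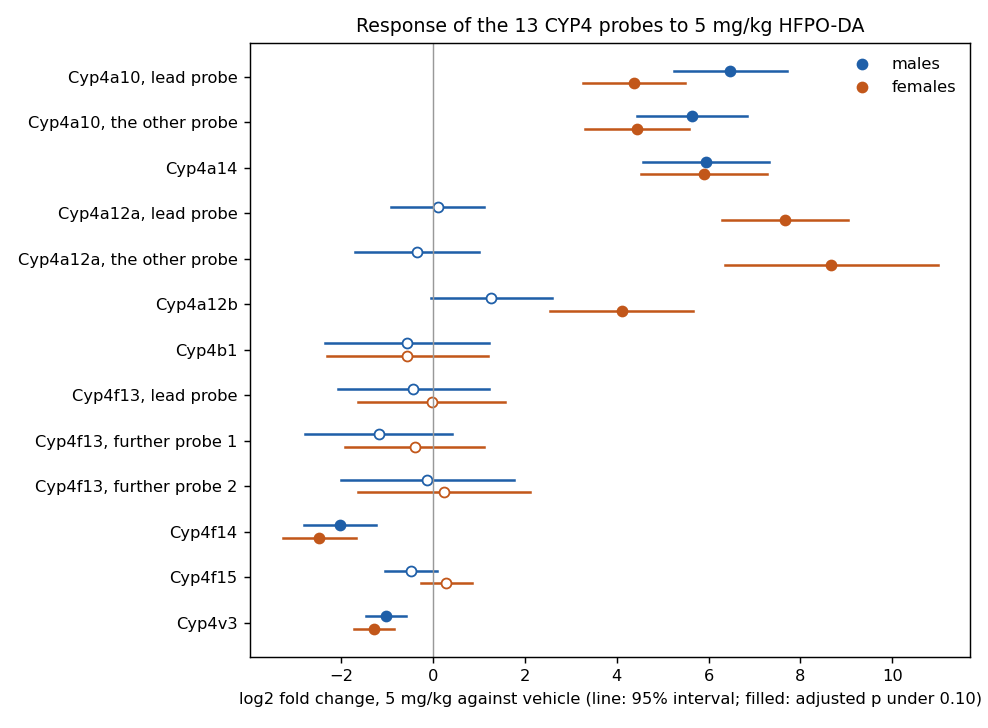
Log2 fold change at 5 mg/kg against vehicle for the 13 member probes in males and females, with 95% intervals from the quasi-likelihood fit and filled symbols at an adjusted p under 0.10. The Cyp4a10 and Cyp4a14 probes lie to the right in both sexes, the Cyp4a12 probes to the right in females, and Cyp4f14 and Cyp4v3 to the left in both. The female value of the other Cyp4a12a probe is fitted against a group with no count and is not a bound.

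The share of the change at 5 mg/kg already seen at 0.5 mg/kg is given here as a description, since shares were not tested between genes. At 0.5 mg/kg Cyp4a14 had reached 80.6% of its log2 fold change at 5 mg/kg in males and 73.7% in females. Cyp4a10 had reached 70.0% and 61.6% on its lead probe and 78.7% and 68.9% on the other. Cyp4v3 stood at 11% in males and 37.1% in females, and Cyp4f14 at 49.3% in males and −2.48% in females. For both genes the values at 0.5 mg/kg were not called. The step from 0.5 to 5 mg/kg was tested directly. In males it was called for the lead probe of Cyp4a10 (1.94 ± 0.51 log2 units, edgeR adjusted p = 0.0169) and for Cyp4v3 (−0.92 ± 0.21, edgeR adjusted p = 0.00655), 1 probe higher and 1 lower against 3.16% and 5.57% of all probes. A single call in each direction among 13 probes cannot be told from these shares. The other Cyp4a10 probe gave 1.20 and was not called (edgeR adjusted p = 0.156), nor was the lead probe without the 4 shallow males (1.54, edgeR adjusted p = 0.182). That fit kept only males 2 and 4 at 5 mg/kg, so a lost call there may also come from fewer mice. The step of Cyp4f14 missed the threshold (−1.03, edgeR adjusted p = 0.102), but passed it in 22 of the 37 fits that left out 1 mouse.

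In females the step was called for Cyp4a12a (3.58 ± 0.59, edgeR adjusted p = 2.28e-04, and its other probe), Cyp4a12b (4.21 ± 0.85, edgeR adjusted p = 0.00295), Cyp4f14 (−2.54 ± 0.40, edgeR adjusted p = 1.08e-04) and Cyp4v3 (−0.81, edgeR adjusted p = 0.0631), against 0.635% of all probes higher and 0.84% lower. Without female 3 at 0.5 mg/kg the step was 5.51 for Cyp4a12a (edgeR adjusted p = 9.68e-09) and 9.57 for Cyp4a12b (edgeR adjusted p = 1.21e-05), the latter fitted against mice with no count and so no bound. The call of Cyp4v3 was lost when any of 6 mice was left out, females 1, 2 and 4 at 0.5 mg/kg and females 1, 2 and 3 at 5 mg/kg (adjusted p 0.118 to 0.392). Cyp4a14 did not overlap between 0.5 and 5 mg/kg in either sex, yet the step was not called (1.15 in males, edgeR adjusted p = 0.232, and 1.55 in females, edgeR adjusted p = 0.417). Cyp4a10 in females was likewise not called (1.68, edgeR adjusted p = 0.184). Both female steps were called with each sex fitted apart (edgeR adjusted p = 0.0105 and 0.00128).

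**Figure D5:**
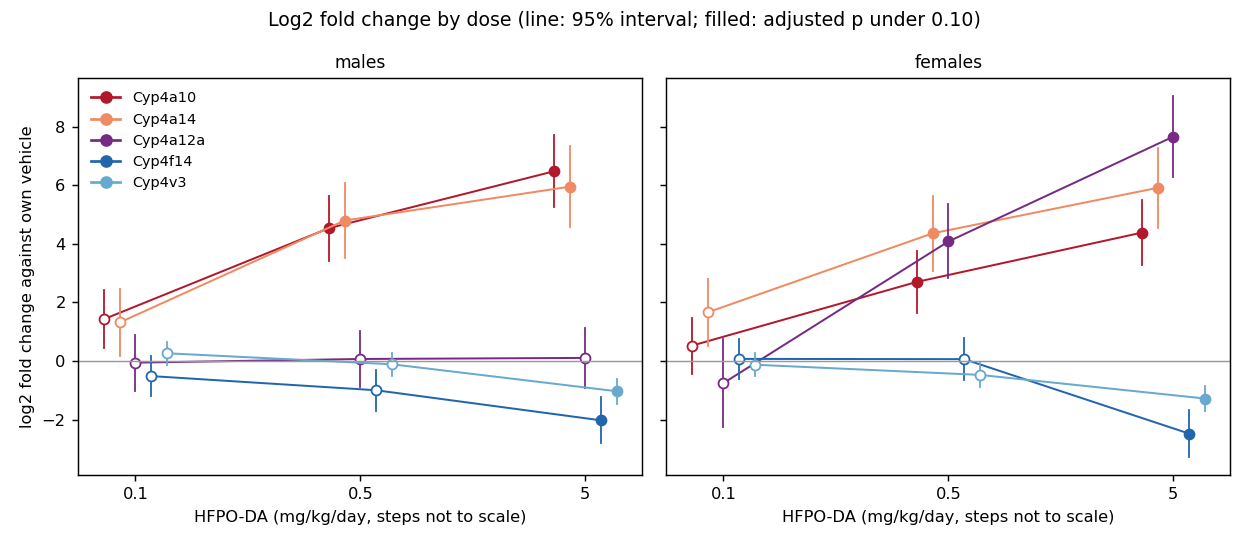
Log2 fold change against the vehicle mice of the same sex at each of the 3 doses for 5 member genes (lead probes), males in the left panel and females in the right, with a colour per gene, 95% intervals as bars and filled symbols at an adjusted p under 0.10. No symbol is filled at 0.1 mg/kg, and at 5 mg/kg Cyp4a12a is at 7.66 in females and at 0.10 in males.

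All members together took 0.0674% to 0.139% of all counts in vehicle males and 0.572% to 0.707% at 5 mg/kg. In females the share went from between 0.0707% and 0.0942% to between 0.546% and 0.595%. At 0.5 mg/kg it was 0.202% to 0.367% in males and 0.215% to 0.244% in females. The ranges at 0.5 and 5 mg/kg did not overlap with those of vehicle in either sex.

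On the log2 scale the response to HFPO-DA differed between the sexes for Cyp4a12a. From vehicle to 5 mg/kg its lead-probe mean went from 0.972 to 197 CPM in females and from 446 to 479 CPM in males. A rise in males of the same size in CPM as that in females would lie within the male log2 interval given above. The test therefore compares fold changes and does not show that males lack such a rise. The difference (log2 fold change in males less that in females) was −7.55 ± 0.84 at 5 mg/kg (−9.26 to −5.85, edgeR adjusted p = 5.51e-07), and the other probe was also called (edgeR adjusted p = 1.72e-04), so that 2 member probes were lower and none higher against 0.463% and 0.167% of all probes. At 0.5 mg/kg the difference for Cyp4a12a was −4.01 ± 0.78 (edgeR adjusted p = 0.0686), 1 of the 0.0108% of probes called there. It was lost in the robust fit (adjusted p = 0.68), without the 4 shallow males (0.148) and on leaving out any of 11 mice, most of all female 3 at 0.5 mg/kg (−2.08, edgeR adjusted p = 0.903). At 0.1 mg/kg no difference was called (0% of all probes).

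For the other responding genes a difference between the sexes was not called. Cyp4a10 had 2.09 ± 0.72 at 5 mg/kg (0.64 to 3.55, edgeR adjusted p = 0.269), and with no filter on low counts this value was called (edgeR adjusted p = 0.0221). Its other probe gave 1.19 ± 0.72 (−0.27 to 2.65, edgeR adjusted p = 0.605). The interval was −1.62 to 1.70 for Cyp4a14, −0.59 to 1.5 for Cyp4f14 and −0.35 to 0.85 for Cyp4v3. Cyp4a12b had −2.84 ± 1.0 (−4.87 to −0.81, edgeR adjusted p = 0.286).

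Of the 11 other CYP4 genes on the panel, 5 had a probe that passed the filter (8 of 16 probes). Cyp4a31 and Cyp4a32, which lie next to Cyp4a10 at chr4:115563649-115579015 and chr4:115600969-115621602, rose at 5 mg/kg in both sexes. Cyp4a31, on its lead probe, went from 83.6 ± 47.8 CPM (SD, n = 5) to 2033 ± 470 CPM (n = 4) in males and from 107 ± 43.7 to 1880 ± 60.3 CPM in females, log2 fold changes of 4.60 ± 0.41 (edgeR adjusted p = 5.79e-11) and 4.13 ± 0.40 (edgeR adjusted p = 5.78e-10). Cyp4a32 rose by 3.67 ± 0.50 log2 units in males (edgeR adjusted p = 9.87e-07) and 3.50 in females (edgeR adjusted p = 3.24e-06). Cyp4f16, Cyp4f17 and Cyp4f39 were not called. The male at 0.1 mg/kg that was highest for Cyp4a10 and Cyp4a14 was also highest for Cyp4a31, at 325 CPM, while for Cyp4a32 mouse 1 was the highest of that group, at 78.2 CPM.

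The route that follows omega-hydroxylation was read from a list of 9 alcohol and aldehyde dehydrogenases, of which 7 passed the filter. At 5 mg/kg 4 were higher and 2 lower in males, against 2 and 1 in females, with a median log2 fold change of 0.55 and 0.20. Beside this list and those below, 4.21% of all probes were higher and 8.49% lower in males at 5 mg/kg. In females the share was 2.26% in each direction. Aldh3a2, the fatty aldehyde dehydrogenase, rose from 625 ± 213 to 7708 ± 758 CPM in males (log2 fold change 3.63 ± 0.25, edgeR adjusted p = 3.25e-14) and from 1071 ± 344 to 4223 ± 754 CPM in females (1.98 ± 0.24, edgeR adjusted p = 8.94e-08), a larger response in males (difference 1.65 ± 0.33, edgeR adjusted p = 0.00873). Adh4 fell in both sexes (−1.26 and −1.24).

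Of 11 genes tested for the peroxisomal oxidation that shortens dicarboxylic acids, at 5 mg/kg 9 rose in males and 10 in females, and none fell. Ehhadh, the bifunctional enzyme of that route, rose by 5.51 and 5.03 log2 units. The median over the 11 genes was 1.66 in males and 1.62 in females. The next lower dose, 0.5 mg/kg, raised 7 of the 11 in males and 4 in females, against 0.382% and 0.108% of all probes.

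Among 5 electron donors and related genes of microsomal P450s, 1 rose and 1 fell in each sex at 5 mg/kg (median 0.24 in males, 0.26 in females). Cyb5b rose by 0.60 and 0.61 and Cyb5a fell by 0.66 and 0.55 log2 units, while Por, the P450 reductase, was at 0.24 (edgeR adjusted p = 0.748) in males and 0.73 (edgeR adjusted p = 0.31) in females. Of 9 genes for PPARα and its partners none rose and 1 fell in each sex (median −0.27 and −0.22), Ncoa1 in males (−1.33, edgeR adjusted p = 0.0486) and Rxra in females (−0.55, edgeR adjusted p = 0.0437). A single call in a list this short cannot be told from the share of all probes. Rxra was not called in males here, while the authors report lower RXRα expression at the high dose in both sexes. Ppara itself was at −0.58 in males (edgeR adjusted p = 0.116) and 0.29 in females (edgeR adjusted p = 0.824).

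Because Cyp4a12a is a male-biased gene, lists of other sex-biased liver genes were read beside it. Of 10 male-biased genes (Cyp4a12a not among them), 6 were higher in males already with vehicle. None of the 10 rose in females at 5 mg/kg and 1 fell, Hsd3b2 (−2.65), for a median of −0.39, while 6 fell in males (median −1.71). Elovl3, another male-biased gene of fatty acid metabolism, was at 1.42 ± 0.65 in females (edgeR adjusted p = 0.335). Of 14 female-biased genes, all lower in vehicle males, 10 fell in females at 5 mg/kg and none rose (median −2.28). In males 4 of the 14 rose and 1 fell (median 1.0).

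The genes most like each member were found by the root mean square difference over the 6 log2 fold changes (3 doses in 2 sexes) among 9505 genes. For Cyp4a10 these were Vnn1 (0.803 log2 units), Ehhadh (0.806), Cyp4a31 (1.01), Cyp4a14 (1.06) and Acot1 (1.20), and for Cyp4a14 they were Cyp4a10 (1.06), Vnn1 (1.19), Ehhadh (1.27), Cyp4a31 (1.46) and Acot1 (1.52). No gene lay as close to Cyp4a12a: Mtnr1a was nearest at 1.68, followed by Dab1 (1.93), GM3601 (2.09), Fitm1 (2.165) and Osbpl3 (2.19). Mtnr1a stood at 6.97 in females and 2.84 in males at 5 mg/kg, beside 7.66 and 0.10 for Cyp4a12a. The nearness is a description, since the doses of a sex share their vehicle mice.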

How the data were processed

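Sections of fixed liver (4 to 6 µm) from 40 mice, 5 per sex and dose, were assayed by TempO-Seq on a HiSeq 2500. The authors demultiplexed the reads (bcl2fastq 2.17.1.14) and aligned them (Bowtie, version not given in the sources used here), removed 3 mice, and deposited counts per probe without normalization for the other 37. The genome build behind the probes is not given in the sources used here. Sequencing reads without molecular identifiers are not independent molecules, so floors cover counting error only, and intervals and p-values measure the spread between mice.

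Low counts were filtered (filterByExpr over the 8 sex-by-dose groups), and the rest were scaled by TMM and fitted with edgeR 4.0.16 (R 4.3.3, quasi-likelihood test) over all 37 mice, with 1 mean per group and a threshold of 0.10 on the Benjamini-Hochberg adjusted p. CPM were computed from these counts. The probe of a gene with the highest total count stands for it. Alternatives were DESeq2 1.42.0 with and without Cook's filter, DESeq2's size factors, a robust fit, no filter or a minimum mean of 10 counts, probes summed, a fit per sex, thinned counts, a stricter threshold (0.05), and fits without each mouse or without all 4 shallowest mice. The last, and DESeq2 without Cook's filter, were added after seeing the data. All members and every other CYP4 probe kept are named, with at most 5 genes of each other list by smallest adjusted p at 5 mg/kg and the 5 nearest profiles. Some genes of a marker list are named for a value at 0 or a call. Members and lists were chosen with earlier results of these data known. A few listed genes are counted but not reported here by name.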

Additional observations from a re-analysis of the deposited data

Results flagged for a closer look

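Among 72 sets of values tested for a mouse far from the rest of its group (9 genes, 8 groups), 8 had one. The rule's rate of about 1 in 20 by chance assumes normally distributed values. Skewed CPM, some of them 0, are not normally distributed, so the number flagged is not read as an excess. For Cyp4a14 it was male 3 at 0.1 mg/kg, at 141 CPM against 2.65 to 28.9 CPM in the others. Female 3 at 0.5 mg/kg was the outlying mouse for Cyp4a12a, at 52.6 CPM against 1.79 to 8.41 CPM, and for Cyp4a12b, at 2.14 CPM against 0 in the others. This female had 489 CPM of Cyp4a10, the lowest of its group. Cyp4a12b had a single low male at 0.5 mg/kg, mouse 2 at 14 CPM against 33 to 39.9 CPM, and a single high female at 0.1 mg/kg, mouse 5 at 0.347 CPM against 0 to 0.0871 CPM. Male 1 at 0.5 mg/kg was high for Cyp4f15, at 97.2 CPM against 58.8 to 66.4 CPM, and for Cyp4f13, at 11.1 CPM against 0 to 3.18 CPM. Female 1 at 0.1 mg/kg was low for Cyp4f13, at 3.22 CPM against 6.48 to 7.32 CPM.

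The response of Cyp4a12a differed between the sexes in a test of the difference itself, by −7.55 log2 units at 5 mg/kg and by −4.01 at 0.5 mg/kg, where edgeR's adjusted p was 0.0686 and the call depended on female 3.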

How the results depend on the processing

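At 5 mg/kg the directions and calls of Cyp4a10, Cyp4a14, Cyp4f14 and Cyp4v3 in both sexes, and of Cyp4a12a and Cyp4a12b in females, were the same in every setting that gave an adjusted p and on leaving out each mouse. DESeq2's Wald test gave no p for Cyp4a14 in any comparison, because of its Cook's filter, and its counts of called member probes at 0.5 mg/kg were 1 for males and 2 for females (3 and 4 in edgeR), and for males at 5 mg/kg 3 (5 in edgeR). For males at 5 against 0.5 mg/kg it called 4 with and without Cook's filter, as did edgeR with no filter and with thinned counts (2 as reported, 2 or 3 in the other settings). For females at 5 against 0.5 mg/kg 8 were called with no filter and with each sex apart (5 as reported, 4 or 5 in the other settings). The difference between the sexes at 0.5 mg/kg went from 1 call to 0 with the robust fit, at a threshold of 0.05 and without the 4 shallowest mice, and that at 5 mg/kg from 2 to 1 with probes summed, where Cyp4a12a is 1 feature. The cause was not tested for the others.

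Leaving out each mouse in turn gave, for males and females, 3 to 4 and 3 to 4 calls at 0.5 mg/kg, 5 to 6 and 8 to 8 at 5 mg/kg, 2 to 4 and 4 to 6 for 5 against 0.5 mg/kg, 0 to 1 and 2 to 2 for the sex difference at 0.5 and 5 mg/kg, 3 to 5 between vehicle sexes, and 0 at 0.1 mg/kg. For males at 5 against 0.5 mg/kg the 4 calls came without male 4 at 0.1 mg/kg or male 2 at 5 mg/kg, when Cyp4f14 and Cyp4f15 were also called, and Cyp4f14 was called in 22 of the 37 fits. Without male 2 at 5 mg/kg Cyp4f15 was called against vehicle too (−0.87, edgeR adjusted p = 0.0593). The sex difference at 0.5 mg/kg was lost without vehicle females 1, 2, 4 or 5, vehicle males 1, 3 or 5, males 1, 2 or 3 at 0.5 mg/kg, or female 3 at 0.5 mg/kg. With no filter and in DESeq2 the median of all probes moved by 0.118 log2 units in males at 5 mg/kg. No paired analysis was possible because the replicate numbers only name the mice.

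Low counts limit Cyp4b1, Cyp4f13, Cyp4a12b and the other probe of Cyp4a12a, and 4 shallow males limit the male groups.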
